A study of Mus musculus with 6 samples.

Results

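The genes described here are 10 genes of mitochondrial fusion and fission, chosen by symbol from the 32815 gene rows of the deposited table: Mfn1, Mfn2, Opa1, Oma1, Slc25a46, Dnm1l, Fis1, Mff, Mief1 and Mief2. All 10 had a row, and all 10 passed the low-value filter of a mean of at least 1 FPKM (fragments per kilobase of transcript, scaled to the size of the library), as did 12028 rows in all. The choice used gene function, with earlier results of these data known.

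The samples were C2C12 cells, an immortalised mouse myoblast line labelled wild-type, in 3 libraries of cells under cyclic mechanical stretch (MS) and 3 libraries of control cells. The MS cells were stretched for 8 h at 1 Hz by bending of their plate at 4 points, with a displacement of 4 mm. The stretch is stated as 5333 μ, with no further word on that unit. All 6 libraries carried the same batch label. Whether replicate libraries stem from separate cultures is not stated, and the p-values therefore reflect library-to-library spread that may be technical. The series title names Mfn2 together with Sirt1, NAD+ and contacts between mitochondria and the endoplasmic reticulum, so the comparison asks whether stretch moved the transcripts of the fusion and fission machinery.

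Of 10 myoblast markers, 7 reached 1 FPKM in some library, and their sum was 73.0 to 87.8 FPKM in MS and 86.4 to 99.8 FPKM in control. The defining markers were uneven: Des, a muscle intermediate filament gene, carried most of this sum, the myogenic factor Myod1 was at 0.823 to 1.204 FPKM in MS and 1.42 to 2.00 FPKM in control, and the satellite cell gene Pax7 and the differentiation gene Myog were near 0. Transcripts of other tissues were also present and set some libraries apart. Genes of mature muscle fibres summed to 148 FPKM in MS 1 and 106.9 FPKM in control 3, against 2.31 and 3.42 FPKM in MS 2 and MS 3 and 4.23 and 2.97 FPKM in control 1 and control 2. Kidney genes summed to 103.7 to 113.7 FPKM in the 3 MS libraries and to 103.9 FPKM in control 3. They summed to 3.52 and 3.99 FPKM in control 1 and control 2. Kap carried most of the sums in MS (86.9 to 96.0 FPKM) and control 3 (87.0 FPKM). No other kidney gene exceeded 3.40 FPKM in any library. Lens genes summed to 346 FPKM in MS 1 and 289 FPKM in control 3, against 1012 to 1138 FPKM in the other MS libraries and 1042 to 1316 FPKM in the other controls. Genes of tongue and salivary gland summed to 182 FPKM in MS 1 and 134 FPKM in control 3, against 30.8 to 37.4 FPKM in the other MS libraries and 13.3 to 13.4 FPKM in the other controls. Blood and immune genes summed to 38.6 to 40.4 FPKM in MS and 13.6 to 16.3 FPKM in control, a gap carried by Cd68, at 24.8 to 29.7 FPKM in MS and 3.72 to 5.12 FPKM in control. Adgre1 and Cd3e were at 0 in all libraries, and no endothelial marker reached 1 FPKM. MS 1 and control 3 were the pair highest in muscle fibre and in tongue and salivary gland genes and lowest in lens genes, though not alike in Cd68 or in the salivary gene Car6, and the difference MS 1 minus control 3 is given beside the results. It also equals the estimate of a model with the libraries in 3 sets as terms (control 1 and 2, control 3 with MS 1, and MS 2 and 3), an alternative chosen after the data were seen. Only the set of control 3 with MS 1 holds both groups, so that estimate rests on 1 library per group. Its standard error for Opa1 was 0.116, against 0.064 in the main model. A call lost in that model therefore does not show that a difference is absent.

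Mitochondria fuse and divide continually. The mitofusins MFN1 and MFN2, GTPases of the outer membrane, join the outer membranes of neighbouring mitochondria, and MFN2 also sits where mitochondria touch the endoplasmic reticulum. OPA1, a dynamin-related GTPase, fuses the inner membranes and shapes the cristae, and the stress-activated protease OMA1 cuts it into short forms. For division the GTPase DRP1, the product of Dnm1l, is drawn from the cytosol to the outer membrane by MFF and by MiD51 and MiD49, the products of Mief1 and Mief2, and wraps around the organelle. FIS1 is an outer-membrane protein long linked to fission, and SLC25A46 is an outer-membrane member of the mitochondrial carrier family that interacts with both machineries.

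Promoter windows of 4 genes are shown, the 3 genes that passed the test (Mief1, Opa1 and Mff) and Mfn2, the gene in the series title. Each window is the first the RefSeq table lists for the gene on the build GRCm38.p6 and runs from 250 bases before to 50 bases after the annotated start, 5′ to 3′ on the gene's strand. Capitals mark matches, on either strand, to the sequence motifs named after the windows. The windows lie at chr15:80233830-80234129 on the plus strand for Mief1, chr16:29579084-29579383 on the plus strand for Opa1, chr1:82724640-82724939 on the plus strand for Mff and chr4:147904860-147905159 on the minus strand for Mfn2.
Mief1: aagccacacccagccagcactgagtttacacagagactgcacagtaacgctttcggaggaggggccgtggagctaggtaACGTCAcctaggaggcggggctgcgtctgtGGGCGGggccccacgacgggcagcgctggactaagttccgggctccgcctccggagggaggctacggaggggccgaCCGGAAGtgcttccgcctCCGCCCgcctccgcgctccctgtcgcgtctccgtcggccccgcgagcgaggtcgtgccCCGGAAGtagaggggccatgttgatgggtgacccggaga
Opa1: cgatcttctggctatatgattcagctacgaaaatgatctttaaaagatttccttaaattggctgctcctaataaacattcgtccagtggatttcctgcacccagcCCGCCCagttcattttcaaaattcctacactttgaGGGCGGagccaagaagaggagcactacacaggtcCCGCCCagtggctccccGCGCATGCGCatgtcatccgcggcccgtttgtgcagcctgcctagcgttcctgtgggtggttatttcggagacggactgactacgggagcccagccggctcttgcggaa
Mff: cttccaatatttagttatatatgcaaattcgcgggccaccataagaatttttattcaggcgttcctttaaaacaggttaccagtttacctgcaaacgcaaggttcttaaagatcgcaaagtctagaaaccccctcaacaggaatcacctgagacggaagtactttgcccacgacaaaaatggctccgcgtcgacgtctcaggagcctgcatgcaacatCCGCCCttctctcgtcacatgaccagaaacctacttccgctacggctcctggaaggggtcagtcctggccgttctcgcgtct
Mfn2: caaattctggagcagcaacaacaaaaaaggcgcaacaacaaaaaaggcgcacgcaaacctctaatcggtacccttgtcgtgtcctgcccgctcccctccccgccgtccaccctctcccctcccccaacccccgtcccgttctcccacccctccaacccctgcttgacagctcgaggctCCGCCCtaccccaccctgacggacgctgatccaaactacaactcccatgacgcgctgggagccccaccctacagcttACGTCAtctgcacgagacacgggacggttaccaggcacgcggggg

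RefSeq windows were found for 9 of the 10 genes, 14 windows in all, and Slc25a46 had none in the table. The GC box GGGCGG was present in at least 1 window of all 9 genes, though other windows of Mfn2 held none. It was present in 35.7% of all 32851 windows of this length. Genes were counted if any of their windows matched, so gene counts and shares of windows are unlike measures here. The cAMP response element half-site TGACGT was present for Mfn2 and Mief1 (7.51% of all windows), the ETS site CCGGAAG for Dnm1l, Fis1, Mfn1 and Mief1 (8.86%), the palindromic NRF1 site for Opa1 (0.971%) and the E-box CACGTG for Mief2 (7.15%). No member window held the ATF4 composite element TGATGNAA (3.97% of all windows), the heat shock element GAANNTTC (7.86%), the antioxidant response element TGACNNNGC (12.4%) or the estrogen-related receptor half-site AAGGTCA (4.72%). In the 4 windows shown, no matches overlapped each other, and among all 14 windows a single Fis1 window had overlapping matches (GC boxes). A match describes letters and not binding. Member windows had a GC content of 49.0% to 70.3%, against a median of 52.7% for all windows, and an observed to expected CpG ratio of 0.359 to 1.13, against a median of 0.384.

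After stretch, transcripts of the inner-membrane fusion GTPase Opa1 and of the DRP1 receptors Mff and Mief1 were higher, by 15.2% to 38.9% of the control mean, and none of the 10 genes was lower. The mitofusins, Oma1, Slc25a46, Dnm1l, Fis1 and Mief2 did not pass the test. The test was limma's moderated linear model on log2(FPKM + 1), two-sided. Its p-values were adjusted by Benjamini-Hochberg across 12028 genes, and a gene passed at an adjusted p under 0.05. By this rule 3 of 10 genes were higher and 0 lower, where 30.6% of all tested genes were higher, 23.2% lower and 53.8% changed in either direction, so the share of members that were higher is close to the background. The count was also 3 of 10 with control 3 and MS 1 as a set of their own in the model, where 30.3% of all genes were higher. At an unadjusted p under 0.05, limma gave 5 higher and 0 lower, against 34.1% of all tested genes higher and 25.5% lower. The model with 3 library sets called 0 of the 10 genes in limma (2 higher and 0 lower at an unadjusted p under 0.05), against 26.3% of all genes in either direction and 15.3% higher (24.8% higher and 15.9% lower at an unadjusted p under 0.05). In bulk RNA, fewer cells of a type and less RNA per cell cannot be told apart.

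**Figure D1:**
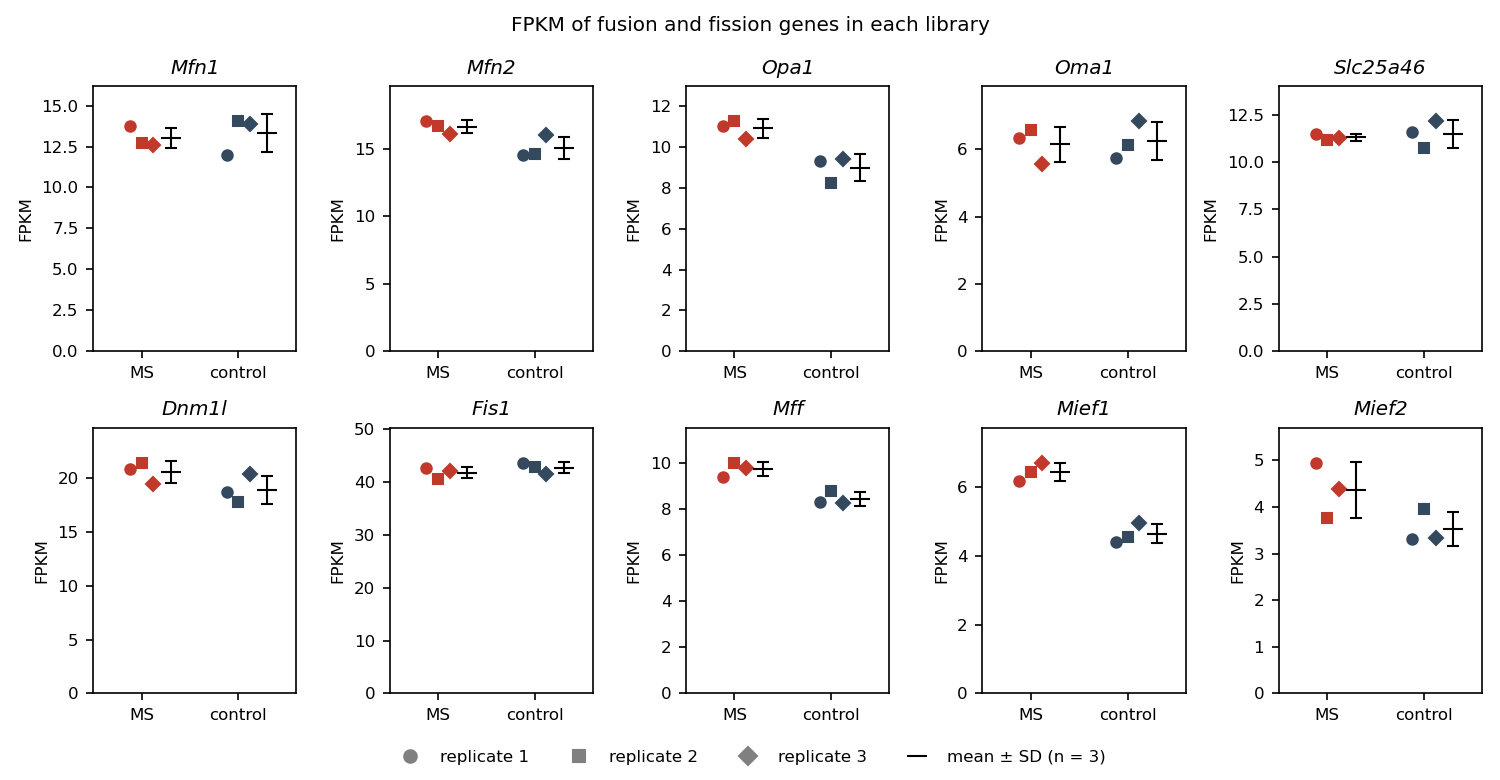
FPKM of each gene in the 3 MS and 3 control libraries. Each point is a library, its shape the replicate number, and the bar beside the points is the mean ± SD (n = 3). For Mfn2, Opa1, Mff and Mief1 every MS point lies above every control point, and in the other 6 panels the groups overlap.

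Mfn2 (ENSMUSG00000029020, chromosome 4, 147958056 to 147989161, minus strand, mm39) had 17.1, 16.7 and 16.1 FPKM in MS 1, MS 2 and MS 3, against 14.5, 14.6 and 16.0 FPKM in control 1, control 2 and control 3. The groups did not overlap, but the lowest MS library lay next to control 3, and MS 1 and control 3, the pair rich in muscle fibre transcripts, were the highest of their groups. The part of those transcripts in the Mfn2 values was not tested. Mfn2 averaged 16.6 ± 0.481 FPKM in MS and 15.1 ± 0.841 FPKM in control (SD, n = 3 each). Its log2 fold change was 0.14 (SE 0.05, 95% interval 0.01 to 0.26, adjusted p = 0.0712). MS 1 minus control 3 was 0.09 on the log2 scale. The test was passed without control 3 (0.18, adjusted p = 0.0217), with library weights (0.15, adjusted p = 0.0216) and with FPKM rescaled to a common sum (0.25, adjusted p = 0.00711), while median-ratio scaling gave 0.08. Adjusted p ranged from 0.00711 to 0.442 over 19 alternatives.

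Mfn1 (ENSMUSG00000027668, chromosome 3, 32583614 to 32633388, plus strand), the other mitofusin, had 13.7, 12.7 and 12.6 FPKM in MS 1, MS 2 and MS 3, against 12.01, 14.1 and 13.9 FPKM in control 1, control 2 and control 3. The control libraries enclosed all 3 MS libraries. The means were 13.0 ± 0.622 FPKM in MS and 13.3 ± 1.14 FPKM in control (SD, n = 3 each). The log2 fold change was -0.03 (SE 0.07, adjusted p = 0.772), and its 95% interval ran from -0.19 to 0.14.

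The ratio of the mitofusins within a library does not depend on how libraries are scaled. Mfn2 exceeded Mfn1 by a factor of 1.24, 1.31 and 1.28 in MS 1, MS 2 and MS 3, against 1.21, 1.04 and 1.16 in control 1, control 2 and control 3. All MS ratios were above all control ratios, with control 1 the nearest. The log2 ratio averaged 0.35 ± 0.04 in MS and 0.18 ± 0.12 in control (SD, n = 3 each), a difference of 0.17, with MS 1 minus control 3 at 0.10. An exact two-sided permutation test over libraries gave p = 0.1, the smallest value that 3 libraries against 3 allow, so the design cannot bring this ratio under 0.05. Without control 2 the difference was 0.11, and without control 1 it was 0.22.

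Opa1 (ENSMUSG00000038084, chromosome 16, 29398152 to 29473702, plus strand) had 11.03, 11.3 and 10.4 FPKM in MS 1, MS 2 and MS 3, against 9.33, 8.24 and 9.39 FPKM in control 1, control 2 and control 3. The lowest MS library stood clear of the highest control library. Opa1 rose by a log2 fold change of 0.25 (SE 0.06, 95% interval 0.10 to 0.41, adjusted p = 0.0134), with means of 10.9 ± 0.469 FPKM in MS and 8.99 ± 0.644 FPKM in control (SD, n = 3 each). Its call held without each library in turn (highest adjusted p = 0.0467) and with every rescaling. With the 3 library sets as terms the estimate was 0.21, close to the main value, and the call was lost (adjusted p = 0.223).

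Oma1 (ENSMUSG00000035069, chromosome 4, 103171009 to 103223640, plus strand) had 6.32, 6.56 and 5.55 FPKM in MS 1, MS 2 and MS 3, against 5.73, 6.12 and 6.85 FPKM in control 1, control 2 and control 3. The groups overlapped, and the log2 fold change was -0.02 (SE 0.08, adjusted p = 0.872), with a 95% interval of -0.21 to 0.17. The ratio of the substrate gene to the protease gene is described here with no test. The log2 ratio of Opa1 to Oma1 was 0.80, 0.78 and 0.90 in MS 1, MS 2 and MS 3, against 0.70, 0.43 and 0.46 in control 1, control 2 and control 3, with no overlap and MS 1 minus control 3 at 0.35.

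Slc25a46 (ENSMUSG00000024259, chromosome 18, 31689164 to 31742964, minus strand) had 11.5, 11.2 and 11.2 FPKM in MS 1, MS 2 and MS 3, against 11.6, 10.7 and 12.2 FPKM in control 1, control 2 and control 3. The MS libraries lay inside the control range, and their SD was 0.165 FPKM, against 0.737 FPKM in control. The log2 fold change was -0.02 (95% interval -0.16 to 0.11, adjusted p = 0.772).

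Dnm1l (ENSMUSG00000022789, chromosome 16, 16130094 to 16176823, minus strand), which encodes DRP1, had 20.9, 21.5 and 19.5 FPKM in MS 1, MS 2 and MS 3, against 18.7, 17.8 and 20.4 FPKM in control 1, control 2 and control 3. MS 3 fell below control 3, so the groups overlapped. The log2 fold change was 0.12 (95% interval -0.04 to 0.27, adjusted p = 0.168), with MS 1 minus control 3 at 0.03. Dnm1l passed with FPKM rescaled to a common sum (0.23, adjusted p = 0.0199) and under none of the other alternatives, and without control 2 its value was 0.07.

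Mief1 (ENSMUSG00000022412, chromosome 15, 80118219 to 80137572, plus strand), the MiD51 receptor gene, had the largest log2 fold change of the 10 genes in the comparison of the group means. It had 6.17, 6.43 and 6.70 FPKM in MS 1, MS 2 and MS 3, against 4.41, 4.54 and 4.94 FPKM in control 1, control 2 and control 3. The gap between the lowest MS and the highest control library exceeded the range of either group, and MS 1 was the lowest MS library while control 3 was the highest control. Mief1 rose by a log2 fold change of 0.40 (SE 0.06, 95% interval 0.26 to 0.54, adjusted p = 0.00142), with means of 6.43 ± 0.263 FPKM in MS and 4.63 ± 0.278 FPKM in control (SD, n = 3 each). The call held under the other 18 alternatives, and with the 3 library sets as terms the value was 0.27 and the call was lost (adjusted p = 0.0913).

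Mff (ENSMUSG00000026150, chromosome 1, 82702611 to 82730111, plus strand), another receptor of DRP1, had 9.38, 10 and 9.76 FPKM in MS 1, MS 2 and MS 3, against 8.28, 8.76 and 8.24 FPKM in control 1, control 2 and control 3. The groups did not overlap. Mff rose by a log2 fold change of 0.18 (SE 0.05, 95% interval 0.06 to 0.30, adjusted p = 0.0190), with MS 1 minus control 3 at 0.17. The call was lost without MS 2 (adjusted p = 0.0629), without MS 3 (adjusted p = 0.0601) or without control 1 (adjusted p = 0.0582). It was also lost with median-ratio scaling (0.13, adjusted p = 0.0696) and with the 3 library sets as terms (adjusted p = 0.219).

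Mief2 (ENSMUSG00000018599, chromosome 11, 60619224 to 60623777, plus strand), the MiD49 receptor gene and a paralog of Mief1, had 4.95, 3.76 and 4.38 FPKM in MS 1, MS 2 and MS 3, against 3.31, 3.95 and 3.34 FPKM in control 1, control 2 and control 3. MS 2 lay below control 2, so the groups overlapped, and Mief2 varied more between MS libraries than Mief1 did, with an SD of 0.595 against 0.263 FPKM. The log2 fold change was 0.24 (SE 0.10, 95% interval 0.01 to 0.47, adjusted p = 0.0772). It passed without MS 2 (0.32, adjusted p = 0.0326) and with FPKM rescaled to a common sum (0.33, adjusted p = 0.0250). The value was smaller without MS 1 (0.16, adjusted p = 0.213) and without both control 3 and MS 1 (0.13, adjusted p = 0.332). In MS 1 minus control 3 it had the largest value of the 10 genes, 0.46.

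Fis1 (ENSMUSG00000019054, chromosome 5, 136982129 to 136995086, plus strand) had 42.6, 40.5 and 42.1 FPKM in MS 1, MS 2 and MS 3, against 43.7, 42.8 and 41.6 FPKM in control 1, control 2 and control 3. It was the most abundant of the 10 transcripts in every library and had the narrowest interval, with a log2 fold change of -0.03 (SE 0.04, 95% interval -0.13 to 0.07, adjusted p = 0.578). Within libraries, the receptor genes Mief1 and Mff were set against Fis1 as ratios, described with no test. The log2 ratio of Mief1 to Fis1 was -2.79, -2.66 and -2.65 in MS 1, MS 2 and MS 3, against -3.31, -3.24 and -3.07 in control 1, control 2 and control 3. The log2 ratio of Mff to Fis1 averaged -2.10 ± 0.08 in MS and -2.34 ± 0.05 in control (SD, n = 3 each), again without overlap.

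**Figure D2:**
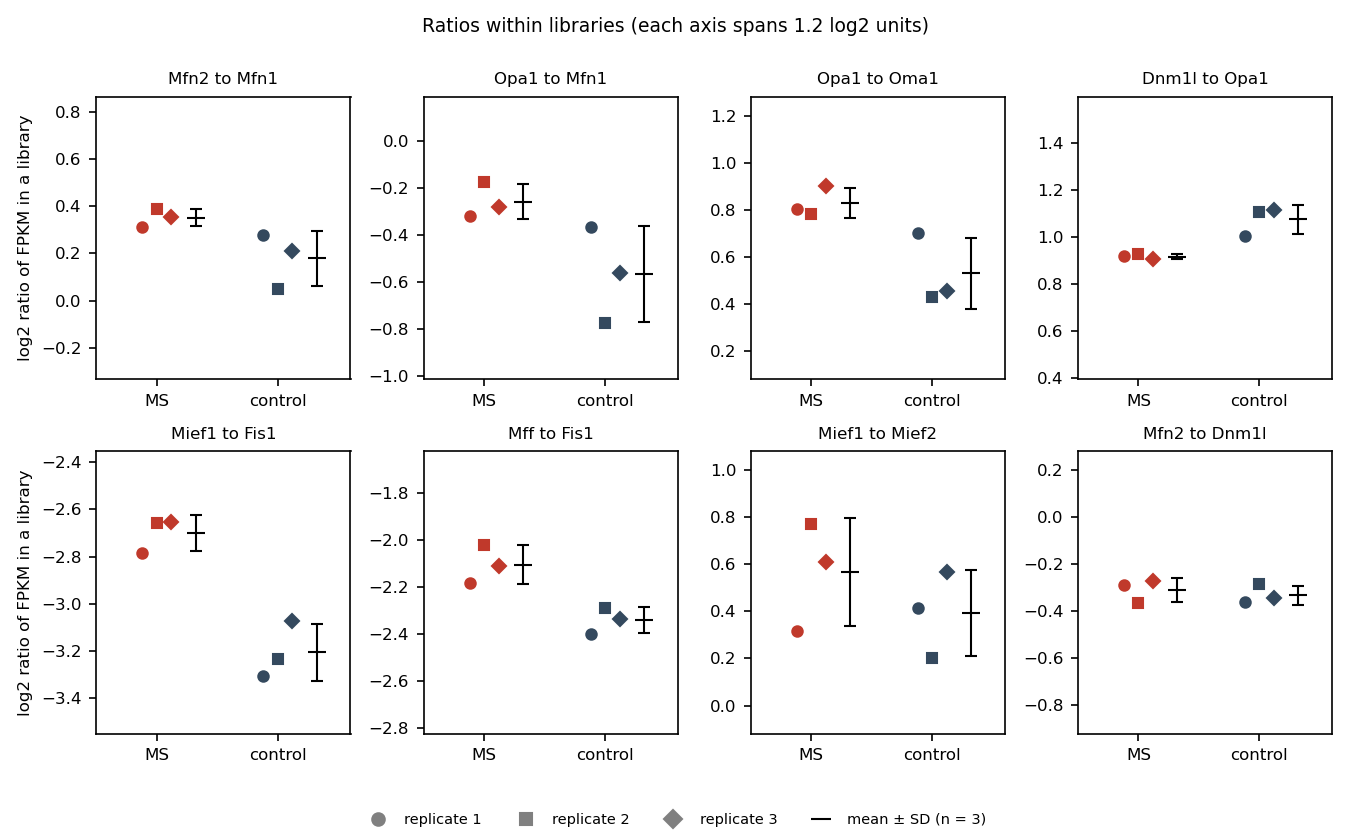
Log2 ratios of FPKM between pairs of genes within a library, for 3 MS and 3 control libraries. Points are libraries, shapes are replicate numbers and bars are the mean ± SD (n = 3). The groups overlapped for Mief1 to Mief2 and Mfn2 to Dnm1l and not for the other 6 pairs. Pairs other than Mfn2 to Mfn1 were chosen after the values were seen. Among single tested genes, 62.7% had groups that did not overlap, and no such share was computed for ratios. In the Dnm1l to Opa1 ratio MS averaged 0.92 and control 1.08.

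The GTPase genes of fission and fusion were also set against each other. The log2 ratio of Mfn2 to Dnm1l averaged -0.31 ± 0.05 in MS and -0.33 ± 0.04 in control (SD, n = 3 each) and overlapped between the groups. The log2 ratio of Dnm1l to Opa1 was 0.92, 0.93 and 0.91 in MS 1, MS 2 and MS 3, against 1.00, 1.11 and 1.12 in control 1, control 2 and control 3. The log2 ratio of the paralogs Mief1 to Mief2 averaged 0.57 ± 0.23 in MS and 0.39 ± 0.18 in control (SD, n = 3 each), with overlap, and MS 1 minus control 3 had the opposite sign (-0.25). These pairs were chosen after the values were seen, 8 ratios in all were computed, and those other than Mfn2 to Mfn1 are descriptions.

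In order of level, Fis1 came first in both groups, then Dnm1l, Mfn2, Mfn1, Slc25a46, Opa1 and Mff, and Mief2 came last. Mief1 stood above Oma1 in MS, at 6.43 and 6.14 FPKM, with overlapping library ranges. In control Mief1 stood below Oma1, at 4.63 and 6.23 FPKM, without overlap. Other neighbours with overlapping ranges were Slc25a46 with Opa1 in MS, and Mfn1 with Slc25a46 and Opa1 with Mff in control. In MS, the mean of Fis1 stood at percentile 89.8 of all tested genes and that of Mief2 at percentile 32.6. In control they stood at percentiles 90.5 and 26.2. The sum of the 10 genes was 143.6, 140.6 and 138.4 FPKM in MS 1, MS 2 and MS 3, against 131.6, 131.6 and 136.8 FPKM in control 1, control 2 and control 3.

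Set within all tested genes, the 10 genes moved little. Their median log2 fold change was 0.13, against 0.05 for all 12028 genes, and their median absolute log2 fold change was 0.13, against 0.24. The absolute value of 7 of the 10 genes lay below the median of all genes. No upper interval bound passed a fold of 1.46 in FPKM + 1, a scale that understates the folds of low genes. With a pseudocount of 0.1 the log2 fold change of Mief1 was 0.47, against 0.40 in the main model. Mief1 stood at percentile 71.9 of all genes by absolute log2 fold change, Opa1 at percentile 52.8, Mff at percentile 40.5 and Mfn2 at percentile 30.9. The 3 MS values all exceeded the 3 control values for 4 of the 10 genes, against 35.9% of all tested genes (62.7% without overlap in either direction).

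**Figure D3:**
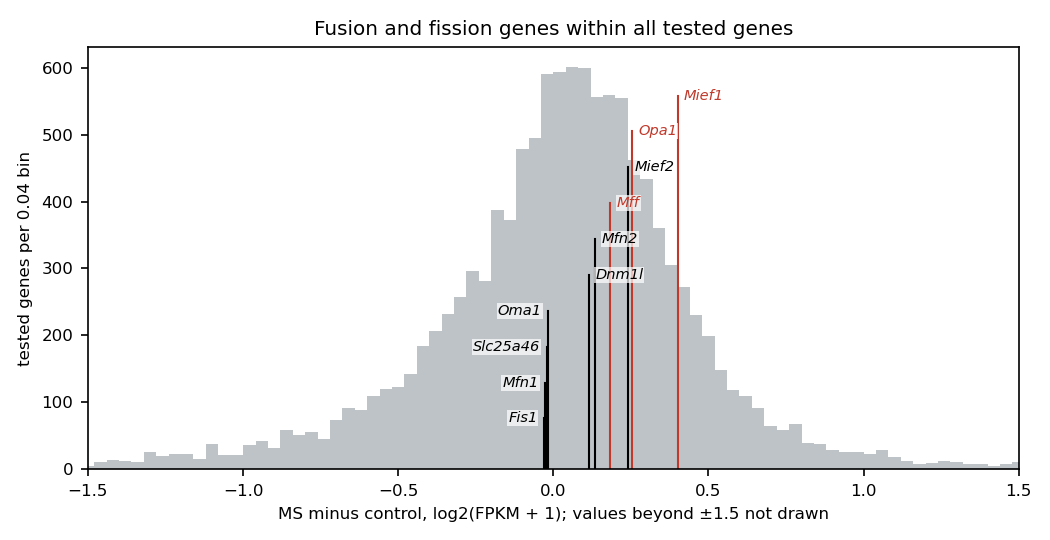
Histogram of the log2 fold change, MS minus control on log2(FPKM + 1), of 12028 tested genes, with a line for each of the 10 genes (red, adjusted p under 0.05; line heights only separate the names). The lines run from -0.03 for Fis1 to 0.40 for Mief1, inside the main body of the distribution.

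The scaling of the libraries moved the small differences. Mitochondrially encoded rows took 2.73% to 3.81% of summed FPKM in MS and 13.2% to 14.3% in control, and rRNA rows took 2.27% to 4.94% in MS and 0.646% to 0.797% in control. The mitochondrially encoded rRNA rows count in both percentages. Without both kinds of rows the sums were 282008 to 284124 FPKM in MS and 279014 to 281842 FPKM in control. Rescaling to a common sum moved the median log2 fold change of all genes to 0.15, and 6 of the 10 genes were then higher (Mfn2, Opa1, Dnm1l, Mff, Mief1 and Mief2), with 41.7% of all genes higher. The split of all calls became 5021 higher and 2029 lower, against 3683 higher and 2787 lower with FPKM as deposited. Rescaling to a common sum with mitochondrially encoded and rRNA rows left out moved the median of all genes to 0.04 and kept the 3 calls. Median-ratio scaling moved it to 0.0025 and left 2 of the 10 genes higher (Opa1 and Mief1), with 25.6% of all genes higher. The signs of Mfn1, Oma1, Fis1 and Slc25a46, all slightly negative with FPKM as deposited, became positive after rescaling to a common sum.

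**Figure D4:**
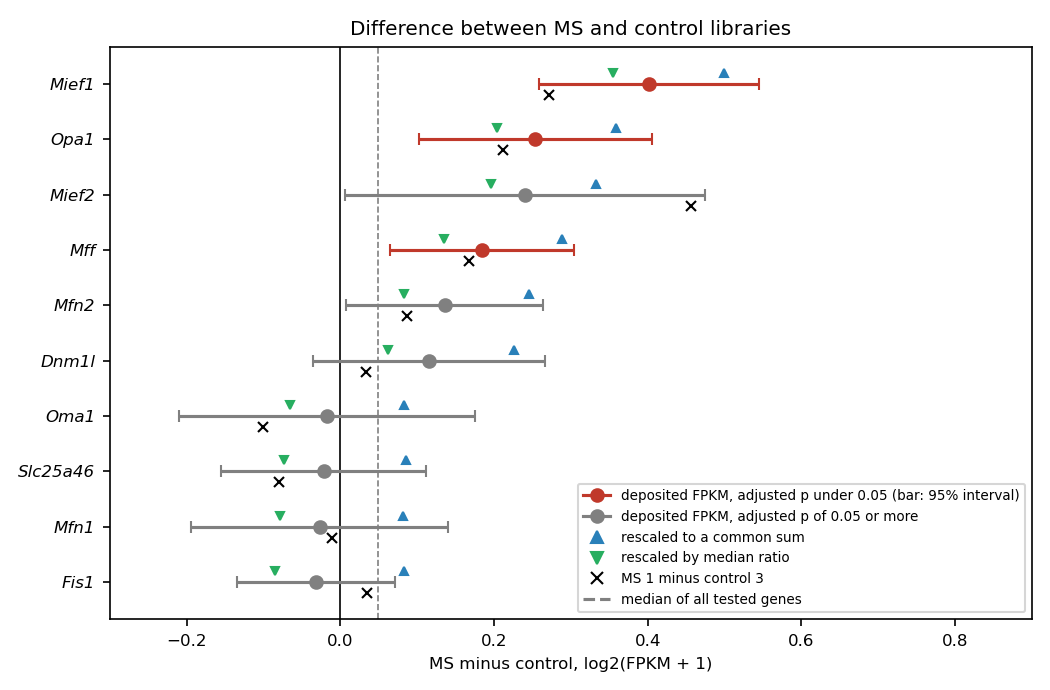
Difference between MS and control in log2(FPKM + 1) for the 10 genes. Circles with 95% intervals are the values from FPKM as deposited (red, adjusted p under 0.05), triangles the values after rescaling to a common sum (up) or by median ratio (down), crosses MS 1 minus control 3 and the dashed line the median of all tested genes. Only the circles of Mief1, Opa1 and Mff are red, and the cross of Mief1 lies near the lower end of its interval.

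The wider pathway was described with lists of genes that act around the fusion and fission machinery. Of 58 genes listed as helpers, 53 were tested, and 21 were higher and 8 lower, with a median log2 fold change of 0.13, against 30.6% and 23.2% of all genes. The model with 3 library sets gave 9 higher and 6 lower, against 15.3% of all tested genes higher and 26.3% changed in either direction. The other 5 listed helpers were below the low-value filter.

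Fusion helpers were higher in 4 of 11 tested genes and lower in 0 (5 and 0 at an unadjusted p under 0.05 in limma), with a median of 0.13. Of all tested genes, 30.6% were higher and 23.2% lower (34.1% and 25.5% at an unadjusted p under 0.05). Bax, the pore-forming BCL2 family protein that also binds mitofusins, had 81.6, 84.9 and 85.8 FPKM in MS 1, MS 2 and MS 3, against 55.7, 57.7 and 54.1 FPKM in control 1, control 2 and control 3 (log2 fold change 0.58, adjusted p = 7.71e-05). Rhot1, which encodes the mitochondrial transport GTPase MIRO1, rose by 0.31 (adjusted p = 0.00467) and Mtch2, an outer-membrane insertase, by 0.25 (adjusted p = 0.00655). Usp30, a deubiquitinase of the outer membrane, rose by 0.18 (adjusted p = 0.0330), and its call was lost without MS 2, without MS 3 and without any of the 3 controls (adjusted p from 0.0510 to 0.105). Of these 4 genes, the model with 3 library sets kept the call of Bax (0.58, adjusted p = 0.00336). It gave 0.29 for Rhot1 (adjusted p = 0.108), 0.18 for Mtch2 (adjusted p = 0.157) and 0.13 for Usp30 (adjusted p = 0.398), all without a call.

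Genes of OPA1 processing and inner-membrane structure were higher in 9 of 18 tested genes and lower in 0 (9 and 1 at an unadjusted p under 0.05 in limma), with a median of 0.19. The shares of all tested genes were 30.6% higher and 23.2% lower (34.1% and 25.5% at an unadjusted p under 0.05). The largest change was in Ghitm, an inner-membrane protein of the TMBIM family, with 183.8, 204.7 and 187.4 FPKM in MS 1, MS 2 and MS 3, against 68.4, 71.5 and 77.9 FPKM in control 1, control 2 and control 3. Its log2 fold change was 1.39 (SE 0.07, adjusted p = 1.6e-05), with MS 1 minus control 3 at 1.23. Afg3l2, a subunit of the matrix-facing AAA protease, rose by 0.47 (adjusted p = 0.000573) and Parl, the inner-membrane rhomboid protease, by 0.38 (adjusted p = 0.00610). Phb, the prohibitin scaffold subunit, had 26.8, 29.6 and 26.8 FPKM in MS 1, MS 2 and MS 3, against 9.63, 18.2 and 22.3 FPKM in control 1, control 2 and control 3 (log2 fold change 0.77, SE 0.26, adjusted p = 0.0398). The 3 control values of Phb differed widely, its call was lost without any MS library or without control 2 (adjusted p from 0.0592 to 0.104), and MS 1 minus control 3 was 0.25. Without control 1 the Phb value was 0.44, and without control 3 it was 1.01. With the 3 library sets as terms the calls of Ghitm and Afg3l2 (0.35, adjusted p = 0.0422) were kept, and Parl stayed at 0.38 without a call (adjusted p = 0.129).

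Fission helpers moved in both directions, with 8 of 24 tested genes higher and 8 lower and a median of 0.07. Among all tested genes 30.6% were higher and 23.2% lower. The largest decreases were in the mitotic cyclin Ccnb1 (-2.39), the mitotic kinases Aurka (-2.07) and Cdk1 (-1.65) and Mtfr2, a mitochondrial fission regulator (-1.19), each with an adjusted p of at most 0.000129. Cdk1 had 11.04, 8.69 and 9.19 FPKM in MS 1, MS 2 and MS 3, against 30.9, 32.4 and 33.5 FPKM in control 1, control 2 and control 3. Ccnb1, Cdk1 and Aurka act in cell division, where CDK1 with cyclin B is known to phosphorylate DRP1, and their list thus holds cell cycle genes beside fission genes. In the model with 3 library sets 5 genes were higher, among them March5 and Ppp3ca that were not called without these terms, and 6 were lower, with the 4 genes above among them.

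**Figure D5:**
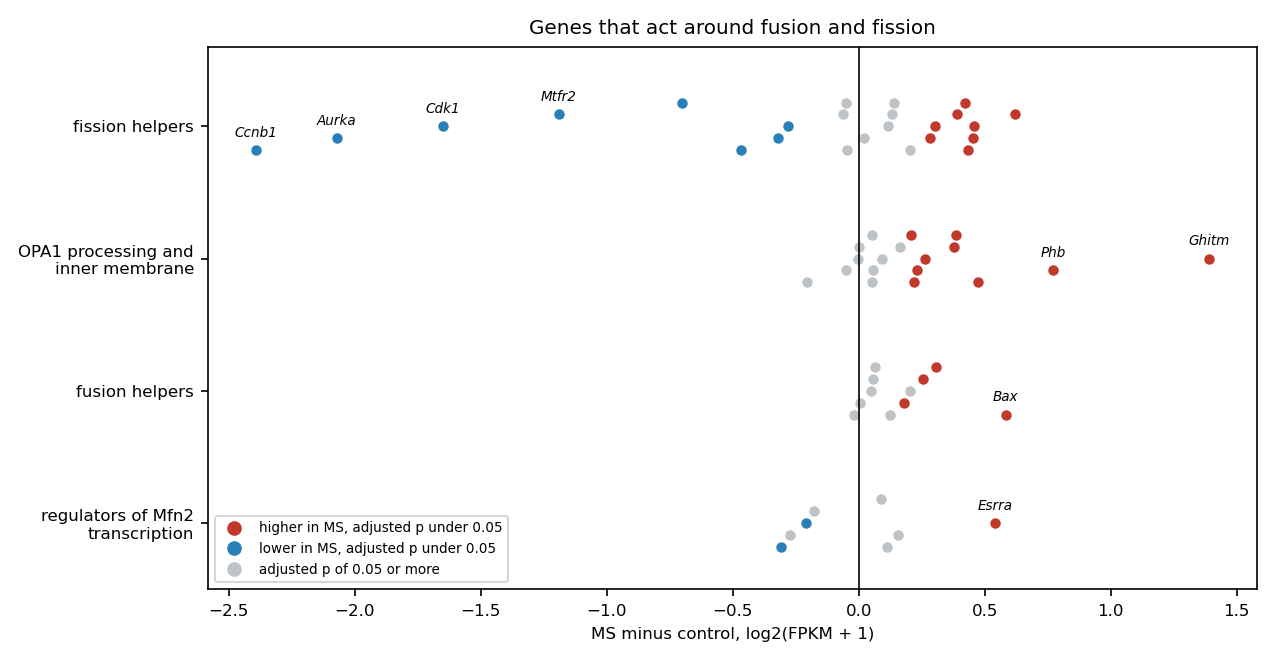
Log2 fold change, MS minus control on log2(FPKM + 1), of the tested genes of 4 lists, 1 point a gene (red higher and blue lower at an adjusted p under 0.05, grey otherwise; points are spread vertically so that they can be seen). Inner-membrane genes reach 1.39 at Ghitm, and fission helpers reach -2.39 at Ccnb1.

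Of 8 regulators known to act on Mfn2 transcription, 1 was higher and 2 were lower, against 30.6% and 23.2% of all tested genes. With FPKM rescaled to a common sum 3 were higher and 1 lower, and with median-ratio scaling 1 was higher and 4 lower. Esrra, an orphan nuclear receptor that drives mitochondrial genes, had 15.7, 15.0 and 16.1 FPKM in MS 1, MS 2 and MS 3, against 10.8, 10.7 and 9.69 FPKM in control 1, control 2 and control 3 (log2 fold change 0.54, adjusted p = 0.000302). It overlaps 73 bases of the more abundant Trmt112 on the opposite strand, at 39.7 to 43.9 FPKM in MS and 37.8 to 39.4 FPKM in control, and without a stated strand setting their reads cannot be told apart there. Nrf1, a transcription factor of nuclear mitochondrial genes, fell by 0.31 on the log2 scale (adjusted p = 0.00375) and the general factor Sp1 by 0.21 (adjusted p = 0.0205). The Sp1 call was lost without MS 2, without MS 3, without control 1 and without control 2 (adjusted p from 0.0640 to 0.0727), and with the 3 library sets as terms its value was -0.05 (adjusted p = 0.637). Nrf1 kept its size there, at -0.32, without a call (adjusted p = 0.0887). Sirt1, the NAD+-dependent deacetylase in the series title, had 4.64, 4.45 and 3.97 FPKM in MS 1, MS 2 and MS 3, against 4.16, 3.75 and 3.51 FPKM in control 1, control 2 and control 3, and did not pass (log2 fold change 0.16, adjusted p = 0.135). It passed with FPKM rescaled to a common sum (0.25, adjusted p = 0.0373), where the Sp1 call was lost (adjusted p = 0.223). With the 3 library sets as terms Esrra was at 0.64 and Sirt1 at 0.32. The other listed regulators were then at 0.31 (Mef2d, against 0.11 in the main model), 0.11 (Ppargc1b), -0.07 (Mef2a) and -0.31 (Ppargc1a).

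Among the other 70 tested genes of these lists and of the 10 genes, Dnm1l had the profile most like that of Mfn2 over the 6 libraries, followed by Afg3l1, an inner-membrane protease subunit, and Minos1, a subunit of the cristae junction complex. The measure was the root mean square difference of log2(FPKM + 1) values centred on each gene's mean, and it was 0.04 for Dnm1l, 0.04 for Afg3l1 and 0.05 for Minos1. None of these 3 genes passed the test, with log2 fold changes of 0.12, 0.09 and 0.05. Mfn2 itself moved little, so the measure was also small for genes that hardly moved. Immt, at a log2 fold change of -0.0017, ranked 16 of the 70 genes, at 0.08. A small value therefore does not show that a gene moved with Mfn2.

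Rows that overlap a member on the genome were low. The highest was Gm28941, on the strand of Mff, with 0.159, 0.566 and 0.276 FPKM in MS 1, MS 2 and MS 3, against 1.19, 0.355 and 0.233 FPKM in control 1, control 2 and control 3. Mfn1, Mfn2, Opa1, Oma1 and Fis1 had no overlapping row.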

How the data were processed

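Poly(A) RNA of 6 C2C12 libraries was sequenced as 150 bp pairs, per the labels' protocols, after dUTP strand marking (insert 300 ± 50 bp). The deposited values are FPKM per gene and library, per the file headers. The submitters' processing notes list HISAT2 2.2.1, StringTie 2.1.6, cutadapt 1.9, edgeR, DESeq2 and the build mm39, with no role or order. Filters, the treatment of reads with several map positions and the strand setting: not given in the sources used here. Coordinates of genes are those of the table. Symbols came from a GENCODE M21 name table by Ensembl ID, which matched 31077 of 32815 IDs.

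Count tests were not applied to FPKM, and absolute depth is unknown. The low values gave normalizing totals of 0.961 to 1.01 relative to control 1. Summed FPKM was 298991 to 304570 in MS and 323607 to 329968 in control. The 12028 genes averaging 1 FPKM or more were tested on log2(FPKM + 1) with limma 3.58.1 in R 4.3.3 (lmFit, eBayes with a mean-variance trend), so fold changes of low genes are understated. The test was checked on simulated data with independent noise. It recovered 49 of 67 genes changed 1.5-fold and 63 of 67 changed 2-fold, with 6 false calls. Smaller changes, such as those of the members, and sets of like libraries were not simulated. The alternatives were other pseudocounts, filters and scalings, library weights, no trend, the replicate block, sets of libraries as terms and leaving out libraries.

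The members and lists were chosen with earlier results of these data known. Named genes were the 10 members, up to 4 called genes of largest change in each list, Sirt1 and the 3 genes most like Mfn2. Motifs were searched in RefSeq promoter windows (GRCm38.p6).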

Additional observations from a re-analysis of the deposited data

How the results depend on the processing

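The 3 calls among the 10 genes were lost with the 3 library sets, and that of Mff also with median-ratio scaling and without MS 2, MS 3 or control 1. With the 3 library sets as terms, chosen after the data were seen, limma called 0 of the 10 genes (2 at an unadjusted p under 0.05), 9 helper genes higher, and 1845 genes higher and 1321 lower overall. With FPKM rescaled to a common sum, 6 of the 10 genes were higher, against 41.7% of all tested genes. Leaving out each library in turn gave 2 to 4 higher members, beside 3074 to 3634 higher genes of 12006 to 12054 tested. A mean of at least 5 FPKM, which leaves Mief2 untested, gave 3, beside 2812 higher genes of 7729 tested. The set of control 3 and MS 1 as a single term is balanced between the groups, so it left every estimate as it was. With it 3 of the 10 genes were higher, against 30.3% of all tested genes.

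Opa1 kept its call under every alternative but the 3 library sets, and so did Mief1. The small negative values of 4 genes changed sign. A common sum raises all genes together, the median of all genes by 0.0991, and with it Mfn1 was at 0.0811, Oma1 at 0.0824, Fis1 at 0.0823 and Slc25a46 at 0.0852. Over the left-out libraries, Mfn1 ranged from -0.0944 to 0.0124, Oma1 from -0.0679 to 0.0433 and Slc25a46 from -0.0670 to 0.0180. Without control 3 and MS 1, Oma1 was at 0.0238 and Slc25a46 at 0.0073. Fis1 was at 0.0341 with the 3 library sets, and Slc25a46 at 0.0224 with library weights. The other sign changes come with fewer or reweighted libraries, or with added terms.

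The replicate numbers did not pair the libraries: deviations from the group means correlated at -0.33, 0.25 and -0.37 for numbers 1, 2 and 3, and MS 1 correlated best with control 3 (0.46). With the replicate block 3 of the 10 genes and 20 helper genes were higher, 8 helper genes were lower, and 3323 genes were higher and 2567 lower overall. The difference between MS and control in the Mfn2 to Mfn1 log2 ratio, at 0.17 with the replicate block (exact p = 0.25, the smallest that 3 pairs allow), ranged from 0.11 to 0.22 over the left-out libraries. Depth is unknown, so no interval for counting error was given.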

Other observations

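Other fission helpers, named after their values were seen, also moved in both directions. Mtfr1l, a mitochondrial fission regulator-like gene, rose by 0.62 on the log2 scale, Dnm2, a dynamin of membrane scission, by 0.46, Pgam5, a mitochondrial phosphatase, by 0.45, Akap1, an outer-membrane anchor of protein kinase A, by 0.43, and Mul1, an outer-membrane ubiquitin ligase, by 0.39. The mitophagy receptors Bnip3 and Fundc1 fell by 0.70 and 0.47, and the calcineurin subunit Ppp3cb fell by 0.32.

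Letm1, an inner-membrane cation exchanger gene, rose by 0.38, Phb2, the partner of Phb, by 0.26, and Yme1l1, the protease that cuts OPA1 without stress, by 0.23. Immt, the core subunit of the cristae junction complex, was at -0.0017 and did not pass (adjusted p = 0.982). With the 3 library sets as terms, limma still called Mtfr1l (adjusted p = 0.00383), Dnm2 (adjusted p = 0.0110), Bnip3 (smaller, at -0.37, adjusted p = 0.0238) and Ppp3cb (adjusted p = 0.0353). Yme1l1 (0.25) and Pgam5 (0.39) stayed about as large without a call (adjusted p = 0.0755 and 0.0621). Akap1 (0.29), Mul1 (0.23), Letm1 (0.23), Phb2 (0.11) and Fundc1 (-0.27) were smaller and not called (adjusted p from 0.0702 to 0.335).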
